A study of Homo sapiens with 6 samples.

Results

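Genes for the uptake and breakdown of glucose were examined in THP1 cells, a line grown from a human acute monocytic leukemia, exposed for 6 h to Withaferin A (WFA) or to its DMSO vehicle. The 36 genes were chosen by name from the table of 26485 genes and cover glucose and lactate transport, glycolysis, the PFKFB enzymes, pyruvate dehydrogenase and its kinases, and HIF1A with its prolyl hydroxylases. RNA of 3 independent experiments gave 6 libraries, with 3 DMSO and 3 WFA replicates, and all were cultures of the same cell line. The libraries were made in a study of WFA and the transcription factor c-MYB, to compare treated with vehicle cells across all genes. The sample labels give the WFA concentration as 1 mM and the paper as 1 μM. Counts on genes summed to between 11006035 and 13872810 per library, and the 36 genes took between 0.831% and 0.937% of them.

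Glucose enters the cell through facilitative transporters, is trapped by hexokinases as glucose 6-phosphate, and is split and oxidised to pyruvate by the enzymes of glycolysis. Pyruvate is either reduced to lactate by lactate dehydrogenase and exported with a proton, or carried into mitochondria, where the pyruvate dehydrogenase complex turns it into acetyl-CoA unless its kinases switch the complex off. Most steps have several isoenzymes, whose genes are used in different tissues, and many of these genes are known targets of the hypoxia-inducible factor HIF-1 and of MYC. Proliferating leukemia cells commonly make lactate even when oxygen is present.

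Expression is given as CPM, the number of counts relative to the TMM-scaled library size, and each change as a log2 fold change of WFA over DMSO with its standard error (SE) from edgeR's quasi-likelihood test, called where the Benjamini-Hochberg adjusted p was under 0.05. Of the 36 genes, 35 passed the filter on low counts and EGLN3 did not. With WFA, 12 of the 35 were higher and 8 lower, and 15 were not called. The called share was 57.1%, beside 50.5% of all 12854 tested genes, so that it was near the background. For the higher genes it was 34.3%, beside 25.8% of all genes, and for the lower genes 22.9%, beside 24.7%. The median log2 fold change was 0.033 over the 35 genes and 0.022 over all tested genes. The CPM ranges of the groups did not overlap for 22 of the 35 genes (62.9%), beside 58.1% of all tested genes. With libraries scaled by total counts alone, 9 of the 35 genes were called higher and 12 lower. Of the 6638 calls over all tested genes, 41.6% were then higher, against 51.0% with TMM scaling. The median log2 fold change was then -0.050 over the 35 genes and -0.063 over all tested genes. In RNA from a whole culture, fewer cells with a transcript and less of it per cell cannot be told apart.

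**Figure D1:**
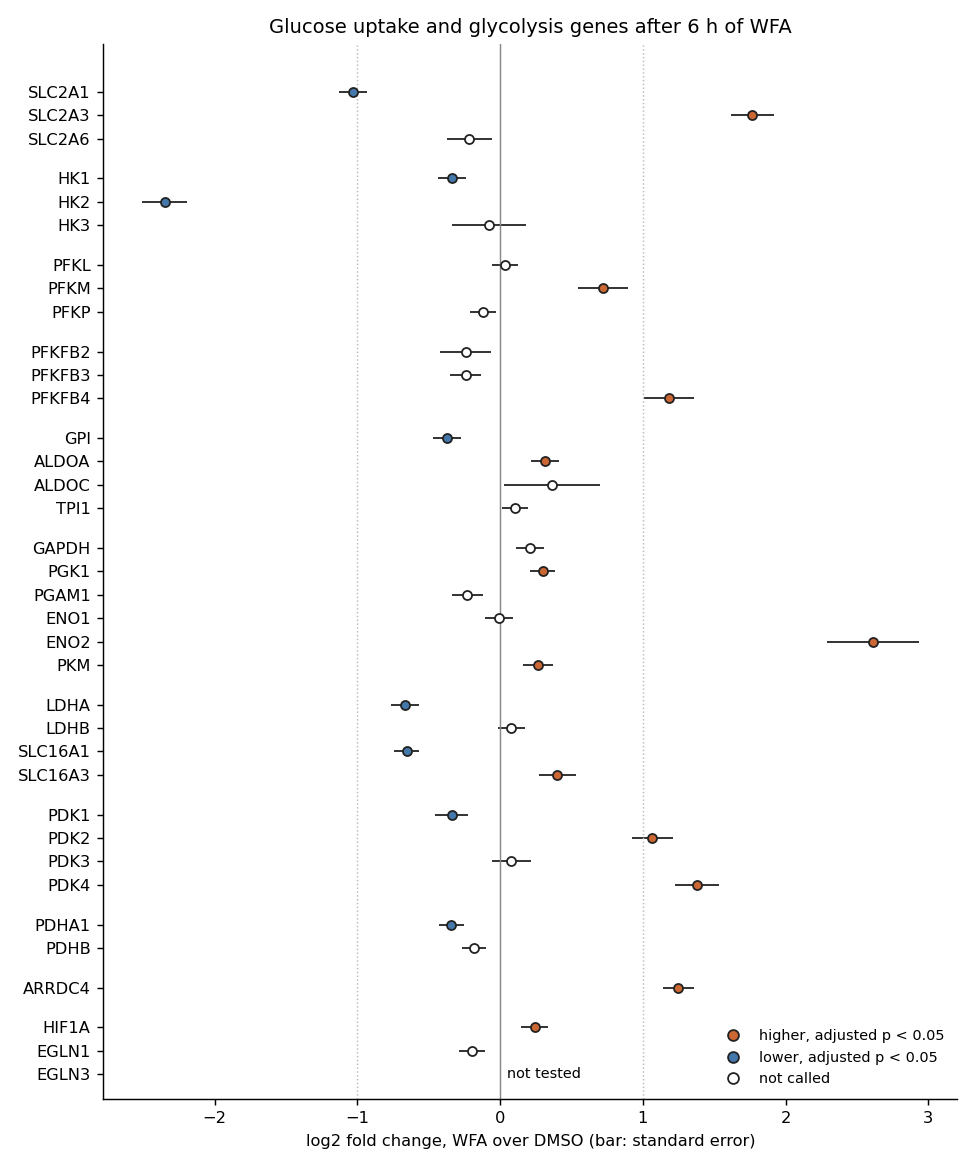
Log2 fold change of WFA over DMSO (x axis) for each gene, grouped by role, with the standard error as a bar and dotted lines at 2-fold. HK2 lies lowest at -2.35 and ENO2 highest at 2.61, and genes of the same family lie on different sides of 0.

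Changes over 2-fold were found for 8 genes. SLC2A3, PFKFB4, ENO2, PDK2, PDK4 and ARRDC4 rose, 6 of 35 genes beside 8.11% of all tested genes. HK2 and SLC2A1 fell, 2 of 35 beside 5.2%. Without WFA replicate 1, 1 gene remained over 2-fold lower, since SLC2A1 then had a log2 fold change of -0.93. Without WFA replicate 3, 4 genes were over 2-fold higher, with PFKFB4 at 0.99 and PDK2 at 0.94. All 8 genes stayed called, in the same direction, in each fit that left out a library.

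**Figure D2:**
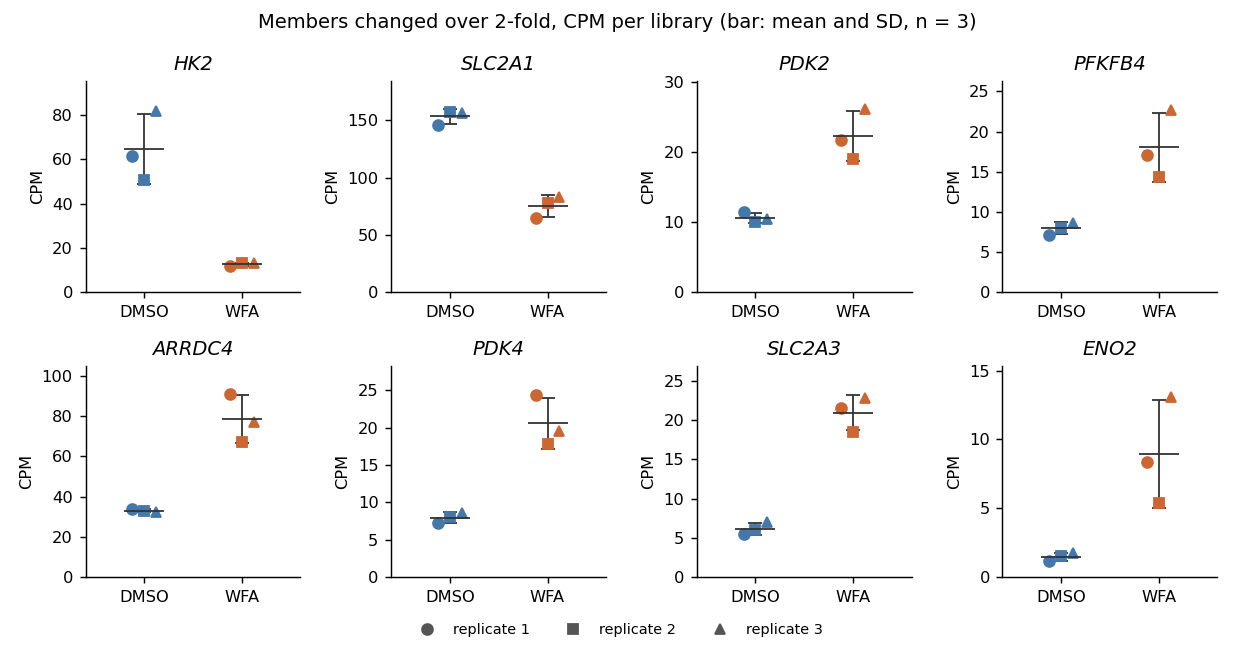
CPM (y axis, from 0) of the 8 genes that changed over 2-fold, with 1 point per library, shaped by replicate, and the mean and SD of 3 libraries per group. The groups do not overlap for any of the 8 genes, and HK2 falls from between 50.5 and 81.7 CPM to between 11.8 and 13.1.

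Of the glucose transporters, SLC2A1 fell and SLC2A3 rose. SLC2A1 (chr1:42925375-42959176, minus strand, GRCh38) encodes GLUT1, the basal transporter of most cells, and had 146, 157 and 157 CPM in the 3 DMSO libraries and 64.7, 78.0 and 83.2 CPM in the 3 WFA libraries. Each WFA library was far below each DMSO library, and the log2 fold change was -1.03 (SE 0.10, edgeR adjusted p = 7.12e-07), a fall of 51.0%. SLC2A3 (chr12:7919230-7936275, minus strand, GRCh38) encodes the high-affinity transporter GLUT3 and had 5.49, 6.00 and 6.999 CPM in the 3 DMSO libraries and 21.6, 18.4 and 22.8 CPM in the 3 WFA libraries. The groups did not overlap, and the gene rose 3.40-fold, with a log2 fold change of 1.77 (SE 0.15, edgeR adjusted p = 2.3e-07). SLC2A6, which encodes GLUT6, a transporter of intracellular membranes, had 13.7, 12.3 and 10.6 CPM with DMSO and 9.48, 12.4 and 9.68 CPM with WFA, with overlapping groups and a log2 fold change of -0.22 (SE 0.16, edgeR adjusted p = 0.274). SLC2A14, which is no member but is nearly identical to SLC2A3 in sequence, had means of 1.27 and 1.05 CPM and was not called (edgeR adjusted p = 0.481). How reads shared by these copies were assigned is not given in the sources used here.

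Hexokinases phosphorylate glucose as the first step of glycolysis, and 2 of the 3 genes fell (66.7%, beside 24.7% of all tested genes). HK2 (chr2:74833981-74893359, plus strand, GRCh38), the inducible form bound to mitochondria, had 61.4, 50.5 and 81.7 CPM in the 3 DMSO libraries and 11.8, 13.05 and 13.1 CPM in the 3 WFA libraries. DMSO replicate 3 was highest, the 3 WFA libraries lay close together, and the gene fell by 80.4%, with a log2 fold change of -2.35 (SE 0.16, edgeR adjusted p = 1.82e-08). This was the largest fall among the 35 tested genes. HK1, the form of most tissues, had 62.0, 52.7 and 59.7 CPM with DMSO and 49.0, 44.8 and 44.2 CPM with WFA, with no overlap and a log2 fold change of -0.34 (SE 0.10, edgeR adjusted p = 0.00923). The HK1 call was lost without DMSO replicate 1, where the log2 fold change was -0.29 (edgeR adjusted p = 0.0514). It held with the replicate number as a block (edgeR adjusted p = 0.000803). HK3, a form of myeloid cells, had 12.4, 17.6 and 11.4 CPM with DMSO and 8.25, 20.1 and 10.8 CPM with WFA. Replicate 2 was highest in both groups, the groups overlapped, and the log2 fold change was -0.077 (SE 0.26, edgeR adjusted p = 0.824). Without WFA replicate 2, but with DMSO replicate 2 kept, the log2 fold change of HK3 was -0.54 and was called (edgeR adjusted p = 0.0401). With the replicate number as a block it was -0.13 and was not called (edgeR adjusted p = 0.429).

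Promoter windows, from 250 bases before to 50 bases after a RefSeq start (GRCh38.p14), were found for 33 of the 36 genes, with 62 windows in all. HK1 and PFKM had 7 windows each, some of which overlapped. No window was found for SLC2A3, PFKFB2 and SLC16A1. Both strands were searched for ACGTG, a form of the core of the HIF binding motif that is called the HIF core here. The variant GCGTG was not searched. The search also covered the E-box CACGTG, which contains ACGTG and is bound by MYC and by the glucose sensor MondoA. The HIF core was present in 23 of the 62 windows (37.1%), beside 21.4% of all 35116 windows and 25.4% of the windows of tested genes. The E-box was present in 9 windows (14.5%), beside 7.26% and 9.25%. The 9 genes with the E-box were ALDOA, ALDOC, ARRDC4, GAPDH, HK2, LDHA, PDHB, PDK2 and PFKFB3, of which ALDOA, ARRDC4 and PDK2 rose and HK2 and LDHA fell. No ACGTG was found in the windows of SLC2A1, PFKFB4 and PDK4, which also changed over 2-fold. This does not exclude the variant GCGTG there.

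The 4 stretches printed here are shown because their genes were called, in both directions, and hold the E-box before a start and outside annotated exons. They were chosen after the matches and the calls were seen. Capitals mark the E-box, and each stretch is on the plus strand and written 5′ to 3′. The HK2 stretch lies at chr2:74834920-74835169, in an intron of the GENCODE gene and before an alternative RefSeq start, with the E-box 194 and 149 bases before that start. The LDHA stretch lies at chr11:18394313-18394387, with the E-box 185 bases before the start, and another E-box 87 bases before the start lies in an annotated exon and is not printed. The ARRDC4 stretch lies at chr15:97960453-97960697, with the E-box 210 bases before the start, and the PDK2 stretch lies at chr17:50095101-50095274, with the E-box 129 bases before a start.
HK2: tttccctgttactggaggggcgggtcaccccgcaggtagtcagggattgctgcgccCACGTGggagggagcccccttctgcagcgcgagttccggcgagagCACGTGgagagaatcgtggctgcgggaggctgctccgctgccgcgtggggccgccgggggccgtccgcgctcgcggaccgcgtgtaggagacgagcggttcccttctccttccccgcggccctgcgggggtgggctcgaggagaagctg
LDHA: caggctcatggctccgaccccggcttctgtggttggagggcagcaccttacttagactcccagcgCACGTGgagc
ARRDC4: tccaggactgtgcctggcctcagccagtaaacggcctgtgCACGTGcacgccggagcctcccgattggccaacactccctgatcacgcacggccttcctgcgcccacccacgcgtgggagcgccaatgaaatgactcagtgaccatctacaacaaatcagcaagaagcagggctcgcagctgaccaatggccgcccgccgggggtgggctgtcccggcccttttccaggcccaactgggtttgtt
PDK2: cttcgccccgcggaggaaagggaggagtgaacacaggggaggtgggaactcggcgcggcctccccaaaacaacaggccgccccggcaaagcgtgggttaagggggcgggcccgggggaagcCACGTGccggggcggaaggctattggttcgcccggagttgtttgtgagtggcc

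Each stretch held 1 E-box except that of HK2, which held 2. A match describes the letters and is not evidence of binding in these cells. GAANNTTC and, on its own, TTCNNGAA, letters of the heat shock element, were each found in 1 of the 62 windows (1.61%), in PGK1 and in HK3. They were found in 6.77% and 7.74% of all windows and in 4.87% and 6.42% of the windows of tested genes. TGACNNNGC, the core of the antioxidant response element, was found in 6 windows (9.68%), those of ALDOC, GAPDH, HIF1A, HK1, PFKL and PKM. It was found in 13.3% of all windows and in 14.5% of the windows of tested genes.

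Phosphofructokinase commits the sugar to glycolysis, and of its 3 genes PFKM rose. PFKL, the liver form and the most expressed of the 3 genes, had 115, 103 and 93.9 CPM with DMSO and 102, 108 and 109 CPM with WFA, with overlapping groups and a log2 fold change of 0.033 (SE 0.091, edgeR adjusted p = 0.785). PFKP, the platelet form, had 56.3, 62.2 and 60.6 CPM with DMSO and 53.3, 57.3 and 54.1 CPM with WFA, also with overlap, and a log2 fold change of -0.12 (SE 0.089, edgeR adjusted p = 0.278). PFKM, the muscle form, was low and had 5.28, 5.13 and 4.92 CPM with DMSO and 7.19, 8.22 and 9.96 CPM with WFA. Each WFA library was above each DMSO library, and the log2 fold change was 0.72 (SE 0.18, edgeR adjusted p = 0.00344).

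The PFKFB enzymes make and remove fructose 2,6-bisphosphate, the main activator of phosphofructokinase, and PFKFB4 rose. PFKFB4 (chr3:48517684-48562015, minus strand, GRCh38) had 7.17, 7.98 and 8.67 CPM in the 3 DMSO libraries and 17.1, 14.3 and 22.7 CPM in the 3 WFA libraries. WFA replicate 3 was highest, the groups did not overlap, and the gene rose 2.27-fold, with a log2 fold change of 1.18 (SE 0.17, edgeR adjusted p = 4.88e-05). PFKFB3, the form with the strongest kinase activity, had 24.8, 25.7 and 24.7 CPM with DMSO and 21.6, 21.1 and 20.8 CPM with WFA. Its groups did not overlap, but the log2 fold change of -0.24 was not called (SE 0.11, edgeR adjusted p = 0.0755). With total counts as the scaling it was -0.33 and was called (edgeR adjusted p = 0.0198). PFKFB2 had 9.29, 8.29 and 9.83 CPM with DMSO and 9.64, 6.44 and 7.07 CPM with WFA, with overlapping groups and a log2 fold change of -0.24 (SE 0.18, edgeR adjusted p = 0.277).

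Of the 4 genes for the steps from glucose 6-phosphate to triose phosphate, GPI fell by 22.7% and ALDOA rose by 24.4%. GPI, the isomerase after hexokinase, had 156, 132 and 121 CPM with DMSO and 107, 109 and 101 CPM with WFA, and fell with a log2 fold change of -0.37 (SE 0.10, edgeR adjusted p = 0.0054). ALDOA, the main aldolase, had 1016, 889 and 832 CPM with DMSO and 1099, 1103 and 1204 CPM with WFA, and rose with a log2 fold change of 0.32 (SE 0.10, edgeR adjusted p = 0.016). The groups did not overlap for either gene. The ALDOA call was lost without DMSO replicate 2, DMSO replicate 3 or WFA replicate 3, with edgeR adjusted p-values of 0.0535, 0.0566 and 0.0509. It was also lost with total counts as the scaling, with 0.0559. It held with the replicate number as a block (edgeR adjusted p = 0.000289). ALDOA also shares 84.5% of its exonic bases with AC093512.2 on the same strand and AC093512.1 on the other strand combined.

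ALDOC, the brain aldolase, had 14.7, 10.6 and 26.2 CPM with DMSO and 18.7, 11.5 and 36.1 CPM with WFA, and replicate 3 was highest in both groups. The groups overlapped, and the log2 fold change of 0.36 was not called (SE 0.34, edgeR adjusted p = 0.393). With the replicate number as a block it was 0.33 and was called (edgeR adjusted p = 0.0117). Without WFA replicate 3, but with DMSO replicate 3 kept, the value was -0.17. TPI1, triose phosphate isomerase, had 193, 171 and 176 CPM with DMSO and 191, 180.2 and 209 CPM with WFA, with overlapping groups and a log2 fold change of 0.10 (SE 0.089, edgeR adjusted p = 0.354).

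In lower glycolysis, where ATP and NADH are made, 3 of 6 genes rose (50%, beside 25.8% of all tested genes). None of these 6 was called lower, beside 24.7% of all tested genes. ENO2 (chr12:6913745-6923698, plus strand, GRCh38), the neuronal enolase, had 1.13, 1.5004 and 1.75 CPM in the 3 DMSO libraries and 8.33, 5.40 and 13.1 CPM in the 3 WFA libraries. The lowest WFA library was over 3 times the highest DMSO library, and the gene rose 6.11-fold, with a log2 fold change of 2.61 (SE 0.32, edgeR adjusted p = 8.7e-06). This was the largest rise among the 35 tested genes, at a low level. ENO1, the enolase of most tissues, had 1615, 1429 and 1399.8 CPM with DMSO and 1533, 1389 and 1499.7 CPM with WFA, with overlapping groups and a log2 fold change of -0.0076 (SE 0.10, edgeR adjusted p = 0.956).

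PGK1, phosphoglycerate kinase, had 643, 619 and 575 CPM with DMSO and 785, 736 and 736 CPM with WFA, with no overlap, and rose with a log2 fold change of 0.30 (SE 0.089, edgeR adjusted p = 0.0117). PKM, pyruvate kinase, had 962, 832 and 823 CPM with DMSO and 1089, 927 and 1123 CPM with WFA, where WFA replicate 2 lay below DMSO replicate 1. Its log2 fold change was 0.26 (SE 0.10, edgeR adjusted p = 0.0471). The call was lost without DMSO replicate 2, DMSO replicate 3, WFA replicate 1 or WFA replicate 3 (edgeR adjusted p between 0.12 and 0.145). It was also lost with DESeq2's size factors or total counts as the scaling (edgeR adjusted p = 0.056 and 0.156). It held with the replicate number as a block (edgeR adjusted p = 0.00322). GAPDH, which makes NADH and is often used as a reference gene, had 1273, 1293 and 1136 CPM with DMSO and 1340.5, 1415 and 1517 CPM with WFA. Its groups did not overlap, and the log2 fold change of 0.21 was not called (SE 0.10, edgeR adjusted p = 0.0898), but was called with the replicate number as a block (0.21, edgeR adjusted p = 0.0234). PGAM1, phosphoglycerate mutase, had 32.1, 35.6 and 29.7 CPM with DMSO and 27.5, 29.3 and 26.2 CPM with WFA, with narrowly separate groups and a log2 fold change of -0.23 (SE 0.11, edgeR adjusted p = 0.0929). With total counts as the scaling PGAM1 was called, at -0.31 (edgeR adjusted p = 0.0235).

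At the step from pyruvate to lactate, LDHA and SLC16A1 fell, and SLC16A3 rose. LDHA (chr11:18394388-18408425, plus strand, GRCh38), the lactate dehydrogenase subunit that favours lactate, had 880.1, 805 and 843 CPM in the 3 DMSO libraries and 599.7, 498 and 496 CPM in the 3 WFA libraries. No WFA library reached the lowest DMSO library, and the gene fell by 36.9%, with a log2 fold change of -0.66 (SE 0.10, edgeR adjusted p = 5.4e-05). LDHB, the subunit that favours pyruvate, had 921, 872 and 807 CPM with DMSO and 981, 891 and 874 CPM with WFA. Its groups overlapped, and its log2 fold change was 0.078 (SE 0.094, edgeR adjusted p = 0.513).

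SLC16A1, the lactate transporter MCT1, had 247, 218 and 242 CPM with DMSO and 155, 155 and 139 CPM with WFA, and fell by 36.4%, with a log2 fold change of -0.65 (SE 0.088, edgeR adjusted p = 2.2e-05). SLC16A3, the lactate exporter MCT4, had 77.4, 87.6 and 62.5 CPM with DMSO and 83.1, 117 and 101 CPM with WFA, and its log2 fold change was 0.40 (SE 0.13, edgeR adjusted p = 0.0184). The groups did not overlap for SLC16A1 but did for SLC16A3, where WFA replicate 1 lay below DMSO replicate 2. The SLC16A3 call was lost without DMSO replicate 3 or WFA replicate 2, with edgeR adjusted p-values of 0.0962 and 0.0959. It held with the replicate number as a block (edgeR adjusted p = 1.08e-05).

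Of the 4 pyruvate dehydrogenase kinases, which phosphorylate and inactivate the complex, PDK2 and PDK4 rose and PDK1 fell. PDK4 (chr7:95583499-95596491, minus strand, GRCh38), the kinase induced by fasting in many tissues, had 7.17, 8.05 and 8.58 CPM in the 3 DMSO libraries and 24.4, 17.8 and 19.6 CPM in the 3 WFA libraries. The groups did not overlap, and the gene rose 2.60-fold, with a log2 fold change of 1.38 (SE 0.15, edgeR adjusted p = 3.26e-06). PDK2 (chr17:50094737-50112152, plus strand, GRCh38), a widely expressed kinase, had 11.5, 10.0 and 10.4 CPM in the 3 DMSO libraries and 21.8, 19.0 and 26.1 CPM in the 3 WFA libraries, and rose 2.09-fold, with a log2 fold change of 1.06 (SE 0.14, edgeR adjusted p = 2.22e-05). PDK2 shares 54.6% of its exonic bases with SAMD14 on the other strand, to which 3 to 11 reads were assigned in the DMSO libraries and 16 to 23 in the WFA libraries. The library kit does not mark strand, so reads in the shared part cannot be told apart.

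PDK1, a HIF-1 target, had 24.9, 23.8 and 21.9 CPM with DMSO and 19.9, 18.1 and 17.8 CPM with WFA, with no overlap and a log2 fold change of -0.34 (SE 0.12, edgeR adjusted p = 0.0245). Its call was lost without DMSO replicate 1 or 2 or WFA replicate 2 or 3 (edgeR adjusted p between 0.0572 and 0.0915). It held with the replicate number as a block (edgeR adjusted p = 0.00754). PDK3, the kinase with the highest level of the 4 genes per kilobase, had 45.3, 36.6 and 48.2 CPM with DMSO and 52.4, 36.2 and 48.6 CPM with WFA. Replicate 2 was lowest in both groups, the groups overlapped, and the log2 fold change was 0.076 (SE 0.14, edgeR adjusted p = 0.667).

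The complex's E1 subunits were lower or not called. PDHA1, the alpha subunit that the kinases phosphorylate, had 111, 101 and 99.3 CPM with DMSO and 88.8, 79.3 and 77.7 CPM with WFA, with no overlap, and fell with a log2 fold change of -0.34 (SE 0.089, edgeR adjusted p = 0.00477). PDHB, the beta subunit, had 67.0, 64.1 and 64.6 CPM with DMSO and 57.5, 58.9 and 56.3 CPM with WFA. Its groups did not overlap, and the log2 fold change of -0.18 was not called (SE 0.085, edgeR adjusted p = 0.0888). With total counts as the scaling it was -0.27 and was called (edgeR adjusted p = 0.0178).

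ARRDC4 (chr15:97960698-97973838, plus strand, GRCh38) encodes an alpha-arrestin that limits glucose uptake and is known, like its relative TXNIP, as a target of MondoA. It had 33.8, 32.9 and 32.3 CPM in the 3 DMSO libraries and 91.0, 67.3 and 77.2 CPM in the 3 WFA libraries, so that the 3 DMSO libraries lay close together and each WFA library was above all of them. The gene rose 2.38-fold, with a log2 fold change of 1.25 (SE 0.11, edgeR adjusted p = 3.57e-07). TXNIP, which is no member, went the other way, with 573, 601 and 579.9 CPM with DMSO and 228, 265 and 206 CPM with WFA, and a log2 fold change of -1.33 (SE 0.10, edgeR adjusted p = 6.44e-08). Of the 7 tested genes for glucose sensing by MondoA and MLX and for other alpha-arrestins, 1 rose (14.3%, beside 25.8% of all tested genes) and 3 fell (42.9%, beside 24.7%). Only 1 was called lower without DMSO replicate 2 or WFA replicate 1, and 2 were called higher without WFA replicate 3 or with the replicate number as a block. MLXIPL, which encodes the sensor ChREBP, rose at a low level, with a log2 fold change of 1.08, and MLXIP, which encodes MondoA, fell, with -0.27. ARRDC1 fell, with -0.45. The MLXIP and ARRDC1 calls were near the threshold, with edgeR adjusted p-values of 0.0478 and 0.0454.

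HIF1A encodes the oxygen-regulated subunit of HIF-1, whose protein is controlled mainly by the prolyl hydroxylases that EGLN1, EGLN2 and EGLN3 encode. HIF1A RNA had 109, 102 and 105 CPM with DMSO and 133, 133 and 107 CPM with WFA, and WFA replicate 3 lay within the DMSO range. The log2 fold change was 0.24 (SE 0.095, edgeR adjusted p = 0.0446). The call held in 1 of the 6 fits that left out a library, that without WFA replicate 3 (edgeR adjusted p = 0.00569). In the others, without each DMSO replicate or WFA replicate 1 or 2, it was between 0.0766 and 0.149. It was also lost with DESeq2 (adjusted p = 0.0929) and without the filter (edgeR adjusted p = 0.053). With DESeq2's size factors or total counts as the scaling it was lost too (edgeR adjusted p = 0.0577 and 0.184). None of these fits had a block, and with the replicate number as a block the HIF1A call held (edgeR adjusted p = 0.00806).

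EGLN1, the main oxygen sensor of the family, had 185, 186 and 187 CPM with DMSO and 180.0, 163 and 144 CPM with WFA. The DMSO libraries lay close together, and all WFA libraries were lower, but the log2 fold change of -0.19 was not called (SE 0.092, edgeR adjusted p = 0.0915). It was called with the replicate number as a block (-0.20, edgeR adjusted p = 0.0238), with total counts as the scaling (-0.28, 0.0183) and without WFA replicate 1 (-0.27, 0.0272). EGLN3, which hypoxia induces in many cells, had 2, 2 and 5 counts with DMSO and 5, 4 and 6 counts with WFA, too few for the filter. A change of EGLN3 was therefore not detectable at this depth. EGLN2 had 0 to 2 counts per library, and it shares 66.6% of its exonic bases with AC008537.1 and the read-through gene RAB4B-EGLN2 combined.

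Since genes of a family moved in different directions, the share of each gene in its family was computed per library from counts per kilobase of merged exons. These shares do not depend on library scaling, and they are given as mean ± SD of 3 libraries per group, as descriptions without a test. SLC2A1 made up 85.7% ± 1.28 with DMSO and 66.4% ± 2.42 with WFA of the 3 glucose transporters, whereas SLC2A3 made up 3.50% ± 0.389 with DMSO and 18.9% ± 2.73 with WFA. HK2 made up 38.7% ± 6.17 with DMSO and 13.2% ± 1.28 with WFA of the hexokinases, and HK1 44.8% ± 2.93 with DMSO and 61.3% ± 8.48 with WFA. The ranges of the groups did not overlap for these 4 genes, but they did for HK3, which made up 16.5% ± 5.34 with DMSO and 25.5% ± 9.20 with WFA.

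**Figure D3:**
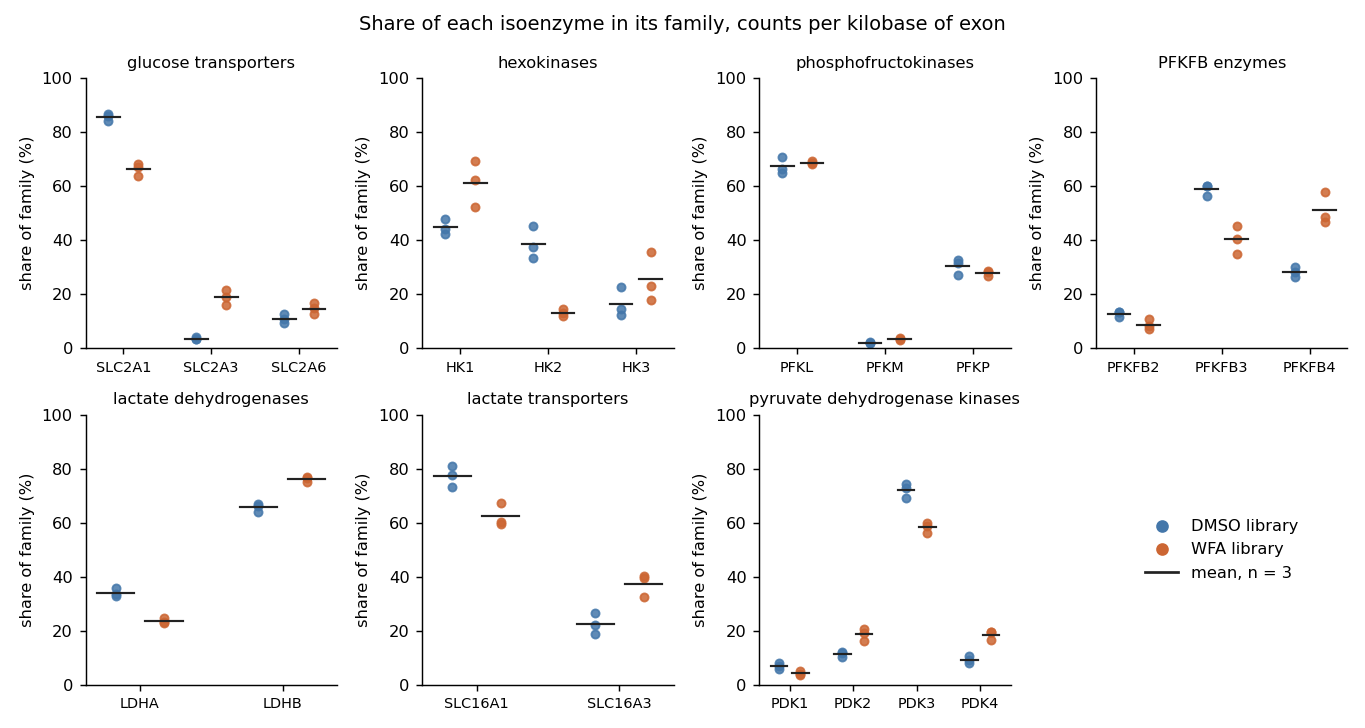
Share of each gene in its family (y axis, percent of counts per kilobase of merged exons), with 1 point per library and the mean of 3 libraries per group as a bar. HK2 falls from 38.7% to 13.2% of the hexokinases and PFKFB4 rises from 28.3% to 51.1% of the PFKFB enzymes, while the phosphofructokinases keep their order.

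PFKFB4 made up 28.3% ± 1.81 with DMSO and 51.1% ± 6.03 with WFA of the PFKFB enzymes, so that its mean share passed that of PFKFB3, which was 58.9% ± 2.05 with DMSO and 40.3% ± 5.09 with WFA. Among the phosphofructokinases the order PFKL, PFKP, PFKM was kept in all 6 libraries, and PFKM made up 2.06% ± 0.0468 with DMSO and 3.38% ± 0.468 with WFA. LDHA made up 34.2% ± 1.44 with DMSO and 23.6% ± 0.867 with WFA of the lactate dehydrogenases, the rest being LDHB. Of the lactate transporters SLC16A3 made up 22.5% ± 3.86 with DMSO and 37.5% ± 4.28 with WFA. PDK3 made up 72.1% ± 2.69 with DMSO and 58.4% ± 1.88 with WFA of the pyruvate dehydrogenase kinases, and PDK4 9.37% ± 1.29 with DMSO and 18.6% ± 1.64 with WFA. ENO2 stayed under 1% of the enolases in every library, with 0.0759% ± 0.0213 with DMSO and 0.456% ± 0.187 with WFA, and ALDOA kept 97.8% of the aldolases in both groups.

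Ratios of the counts of a pair of genes in the same library, with 0.5 added to each count, were compared for 16 pairs by a two-sided exact permutation test. The ranges of the groups did not overlap for 9 of the 16 pairs. The share over other pairs of genes was not computed, and 58.1% of all single tested genes did not overlap in CPM. Some genes were in more than 1 pair. Each of the 9 pairs had an exact permutation p = 0.1, the smallest that 3 against 3 libraries can give. The value was 0.178 after adjustment over the 16 pairs, and 0.25 when tested within replicate numbers, again the smallest possible. The SLC2A1 to SLC2A3 ratio was 26.5, 26.1 and 22.3 with DMSO and 2.996, 4.22 and 3.64 with WFA, a difference of -2.79 on the log2 scale. The HK1 to HK2 ratio was 1.01, 1.04 and 0.731 with DMSO and 4.16, 3.42 and 3.36 with WFA, a difference of 1.99. The LDHA to LDHB ratio was 0.956, 0.922 and 1.04 with DMSO and 0.612, 0.559 and 0.568 with WFA, a difference of -0.75. For HK2 to HK3, PFKL to PFKM, PFKFB3 to PFKFB4, ENO1 to ENO2, SLC16A1 to SLC16A3 and PDK1 to PDK2, the differences were -2.16, -0.67, -1.40, -2.52, -1.05 and -1.39. The groups overlapped for the other 7 pairs, such as PFKL to PFKP, with a difference of 0.16, and PDHA1 to PDHB, with -0.16.

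Per kilobase of exon, SLC2A1, PFKL, HK1 and HK2 were expressed far below ENO1, GAPDH, LDHB and ALDOA in both groups. In DMSO libraries the mean level was 616 CPM per kilobase for ENO1, 555 for GAPDH, 547 for LDHB and 379 for ALDOA. It was 38.5 for SLC2A1, 35.1 for PFKL, 12.4 for HK1 and 10.9 for HK2. With WFA, the level was 2.13 CPM per kilobase for HK2 and 18.9 for SLC2A1, and the 2 largest relative rises, ENO2 and SLC2A3, reached 2.83 and 5.35. Among the steps from triose phosphate to pyruvate, PGAM1 had the lowest level apart from ENO2, 17.8 CPM per kilobase with DMSO, and it has 13 named pseudogenes.

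**Figure D4:**
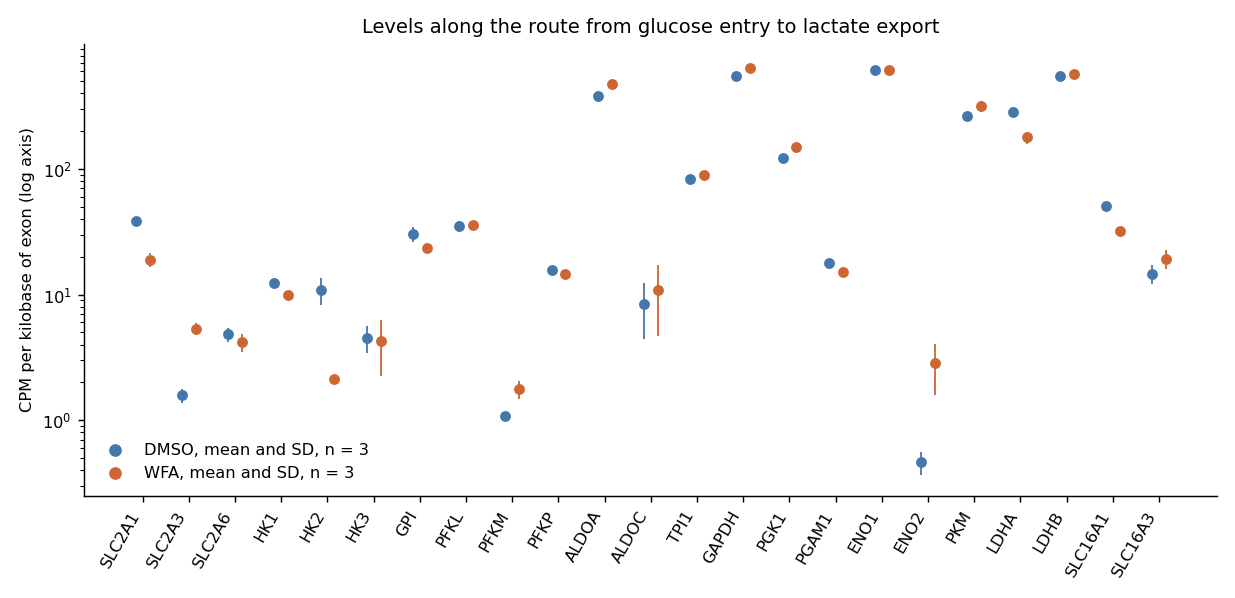
Level per kilobase of exon (y axis, CPM per kilobase, log axis) of the genes from glucose entry to lactate export, with the mean and SD of 3 libraries per group. Levels range from 0.461 for ENO2 to 616 for ENO1 with DMSO, and HK2, SLC2A1, LDHA and SLC16A1 lie lower with WFA.

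The gene models limit some of these values. In GENCODE 29, 20 of the 36 genes share some exonic bases with another gene, and 3 share over 20%, ALDOA, PDK2 and LDHB, which shares 56.2% with AC010197.2. Pseudogenes carrying the gene's name are annotated for 16 of the genes, most for GAPDH, with 62. Values of these genes are uncertain to the extent that reads were split between copies.

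Genes of neighbouring pathways were read from the same fit. Of 12 tested genes for other glucose and lactate transporters and glycolytic isoenzymes, 3 rose (25%) and 2 fell (16.7%), beside 25.8% higher and 24.7% lower among all tested genes, and 1 rose without DMSO replicate 3 or WFA replicate 2. The fructose transporter SLC2A5 fell, with a log2 fold change of -0.83, and the monocarboxylate transporter SLC16A7 (MCT2) fell, with -0.89. SLC2A10 rose, with 0.62, as did BSG, the chaperone of MCT1 and MCT4, with 0.28. Of 18 genes of gluconeogenesis and glycogen, 2 rose (11.1%) and 7 fell (38.9%), beside the same shares of all genes. In each fit that left out a library 1 rose, and without DMSO replicate 1 only 3 fell. Those that fell included PYGL, which breaks down glycogen (-0.55), and the phosphoglucomutase PGM2 (-0.81). PCK2, the mitochondrial PEP carboxykinase, rose, with 0.67, and so did GYG1, with 0.23.

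Of 8 genes for pyruvate import and for partners of the E1 subunits, 1 rose (12.5%, beside 25.8% of all tested genes) and 4 fell (50%, beside 24.7%). The phosphatases PDP1 and PDP2, which reverse the PDK enzymes, fell, with log2 fold changes of -0.65 and -0.63. The E2 and E3 subunits DLAT and DLD fell, with -0.50 and -0.41, while the pyruvate carrier MPC2 rose, with 0.43. Of 18 tricarboxylic acid cycle genes, 4 fell, IDH3A, CS, SUCLA2 and SDHB, by edgeR's test (-0.33, -0.27, -0.23 and -0.25), and 0 rose, also at an unadjusted p under 0.05. The share that fell, 22.2%, was near the 24.7% of all tested genes. The number that fell was 1 without DMSO replicate 1 and 2 without DMSO replicate 2, WFA replicate 2 or WFA replicate 3, at most 6 without any 1 library, and 8 with the replicate number as a block or with total counts as the scaling. The median log2 fold changes of the last 2 lists were -0.27 and -0.080, beside 0.022 over all tested genes.

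HIF target genes outside glycolysis had a median of 0.30 on the log2 scale, and 11 of 23 rose (47.8%, beside 25.8% of all tested genes) and 3 fell (13.04%, beside 24.7%). With the replicate number as a block, 6 fell. The collagen prolyl hydroxylases P4HA2 and P4HA1 rose, with 4.65 and 2.38, as did BNIP3L, a receptor for mitophagy, and DDIT4, an inhibitor of mTORC1 (1.198 and 1.48). AK4, an adenylate kinase, and WSB1 fell, with -0.63 and -0.31. This list leaves out the glycolysis members, many of them HIF-1 targets. Of all 35 tested members, whether HIF-1 targets or not, 12 rose (34.3%) and 8 fell (22.9%). Among those that rose were ENO2, SLC2A3, PFKFB4, SLC16A3, ALDOA and PGK1, with 2.61, 1.77, 1.18, 0.40, 0.32 and 0.30. Among those that fell were HK2, SLC2A1, LDHA and PDK1, with -2.35, -1.03, -0.66 and -0.34. Of 9 other regulators of the pathway, 3 rose, EPAS1 (HIF2A), ARNT and the asparagine hydroxylase HIF1AN, with 0.47, 0.32 and 0.30, and 2 fell, CITED2 and CUL2, with -0.83 and -0.25. Of 9 subunits and upstream kinases of AMPK, the sensor of low energy, 2 rose, PRKAG2 and PRKAB2 (0.84 and 0.68), and 3 fell, with PRKAA1 at -0.45 and STK11 at -0.24. Beside 25.8% and 24.7% of all tested genes, 33.3% of the other regulators rose and 22.2% fell, and 22.2% of the AMPK genes rose and 33.3% fell. Without DMSO replicate 1, DMSO replicate 3, WFA replicate 2 or WFA replicate 3, 1 of the other regulators fell, and without DMSO replicate 2, WFA replicate 1 or WFA replicate 2, 1 of the AMPK genes fell. Of the neighbouring genes named here, ARRDC1, BSG, CS, CUL2, GYG1, HIF1AN, MLXIP, SDHB, SLC2A10, STK11 and SUCLA2 lost their call in at least 1 fit that left out a library (edgeR adjusted p up to 0.249, for SDHB).

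**Figure D5:**
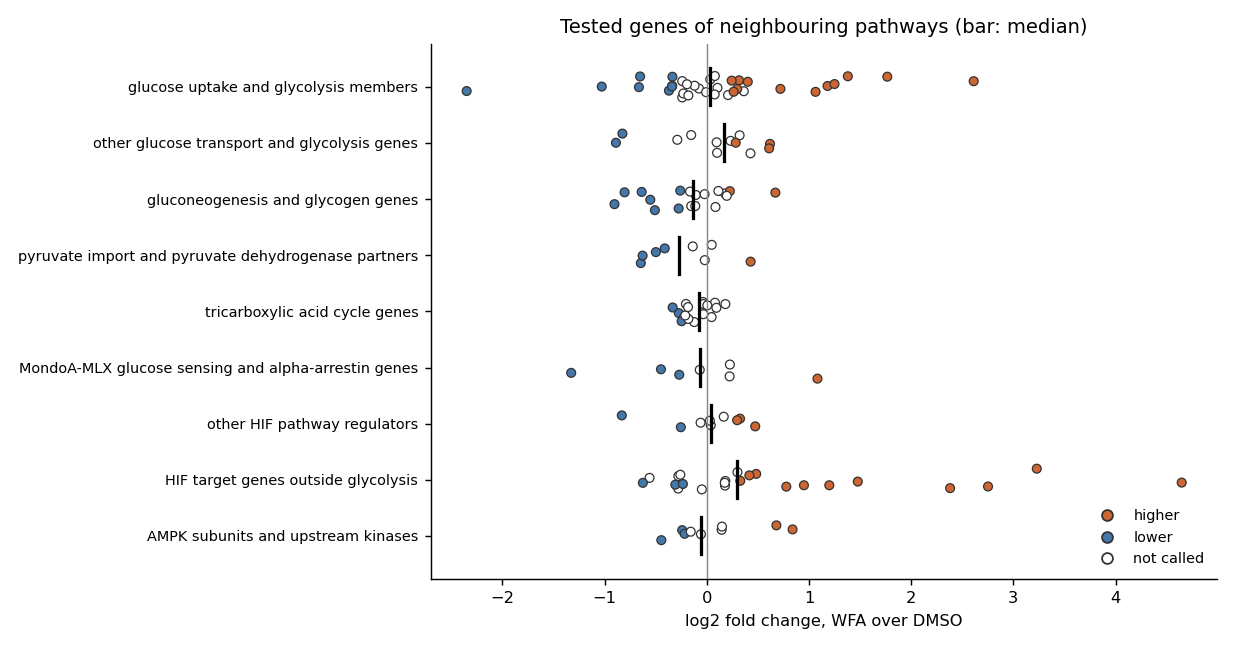
Log2 fold change of WFA over DMSO (x axis) of each tested gene in the glucose uptake and glycolysis set and in 8 neighbouring lists, coloured by its edgeR call, with the median of each list as a bar. The HIF targets outside glycolysis have the highest median, 0.30, and the pyruvate import and pyruvate dehydrogenase partners the lowest, -0.27.

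The myeloid identity of the cells was checked by 10 markers, all of which passed the filter, with summed levels of 2694 to 3230 CPM with DMSO and 2357 to 3150 CPM with WFA. LYZ made up most of this, MPO had a mean of 2.46 CPM with DMSO and 2.39 CPM with WFA, and SPI1, CEBPA, CD33, CSF1R and CD14 fell while CD68 rose. The groups overlapped for SPI1, whose call was near the threshold (edgeR adjusted p = 0.0461) and was lost in at least 1 fit that left out a library (edgeR adjusted p up to 0.207). Of 12 markers of other cell types, 3 passed the filter. PECAM1, which monocytes also express, made up most of their sum of 355 to 402 CPM with DMSO and 317 to 336 CPM with WFA. COL1A1 rose from 0.453 to 9.95 CPM, while COL1A2 and HBB had 0 counts in all libraries. The part of these marker changes in the values above was not tested.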

How the data were processed

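Total RNA of THP1 cells was sequenced from TruSeq RNA v2 libraries of 3 independent experiments per group. As deposited by the authors, the values used are raw counts, whole numbers of reads assigned to each gene symbol. The submitters' processing notes name bcl2fastq 2.19, Trimmomatic, Bowtie2, Picard, featureCounts and DESeq2, with hg38. How multiply mapped reads were counted is not given in the sources used here. Scaled counts and the authors' own comparison (fold changes and p-values) in the same table were not used.

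Counts were analysed with edgeR 4.0.16 in R 4.3.3, by its quasi-likelihood test without a block, after TMM scaling and filterByExpr (minimum count 10). The Benjamini-Hochberg adjustment covered all 12854 tested genes, and the threshold was 0.05. On simulated counts for 12735 genes, 93.9% of 99 changes of 1 and 99% of 100 changes of 2 (log2 scale) were recovered. Smaller changes were not simulated, so these values do not tell how many of them would be recovered. The simulation changed few genes, took their spread from a trend and gave replicates no shared effect. In the data 50.5% of tested genes were called, so recovery there can differ. The median absolute log2 fold change of the tested genes of the glucose set was 0.315. Libraries of a group differed by a chi-square per gene of 5.98 to 11.1, above the sampling noise, so none was a duplicate. Total counts between 11006035 and 13872810 per library set the precision. Loci, exon lengths and overlaps came from GENCODE 29 (GRCh38), and promoters from RefSeq (GRCh38.p14). Exact permutation tests used scipy 1.17.1.

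Replicate numbers come from the labels, where libraries of the same number also share a code in their descriptions. Deviations from the group means correlated across genes between a DMSO and a WFA library of the same number, by 0.22, 0.33 and 0.25, against -0.26 to 0.00 for other pairs, so the numbers were taken to pair the libraries. That block left 2 instead of 4 residual degrees of freedom, and edgeR's prior degrees of freedom became infinite, against 10.8. Alternatives were this block, DESeq2 1.42.0, other scalings, no filter, a robust fit, other lengths and pseudocounts, and leaving out each library. The main test and the fits that left out a library did not use the pairing.

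The 36 genes and the lists were chosen with earlier results of these data known. All 36 are named, with full values for those over 2-fold, for the highest in each role and for those whose call depends on the processing. In each neighbouring list the 4 genes of smallest p-value were named, or fewer, and up to 2 called against the majority. Other genes named with their values, and the promoter stretches, were chosen after their values were seen.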

Additional observations from a re-analysis of the deposited data

How the results depend on the processing

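Of the 35 tested genes, 18 kept their call and direction under all 13 alternatives. Over all genes and alternatives 408 results were the same, 26 calls were lost, 9 were gained and 12 log2 fold changes changed sign. The sign changes were all in HK3, PFKL, ALDOC, ENO1, LDHB and PDK3. These genes were not called in the main fit, nor in the fits where the sign changed. Between 16 and 23 genes were called, against 20. With the replicate number as a block, 23 were called, and besides ALDOC, GAPDH and EGLN1 no call of a member changed. ALDOA, PKM, SLC16A3, PDK1, HIF1A and HK1 lost calls in fits that left out a library, which had no block. With the block their edgeR adjusted p-values were 0.000289, 0.00322, 1.08e-05, 0.00754, 0.00806 and 0.000803, with infinite prior degrees of freedom. Over the whole table the block gave 7585 called genes, against 6489. With total counts as the scaling, the median of all genes moved by -0.085, and PFKL, LDHB and PDK3, none of them called, had log2 fold changes of -0.050, -0.0062 and -0.010.

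Leaving out each library gave 1 to 2 members over 2-fold lower and 18 to 25 called lower among the neighbouring lists, against 28, with 18 without DMSO replicate 1. It gave log2 fold changes of -0.54 to 0.17 for HK3, -0.034 to 0.11 for PFKL, -0.17 to 0.79 for ALDOC, -0.048 to 0.057 for ENO1 and -0.045 to 0.22 for PDK3. The log2 ratio differences ranged from -0.50 to 0.20 for HK1 to HK3, from -0.10 to 0.17 for PFKFB3 to PFKFB2 and from -0.41 to 0.40 for ALDOA to ALDOC. The fits had fewer libraries, and other causes were not tested. At this depth EGLN3 had too few counts for a test. EGLN2 also had too few, and it shares 66.6% of its exonic bases with other genes.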
